A study of Mus musculus with 30 samples.

Results

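Basigin, encoded by *Bsg*, was described together with 9 genes of proteins that it carries or binds. The 10 genes are *Bsg*, the lactate transporter genes *Slc16a1* and *Slc16a3*, the Na,K-ATPase beta subunit genes *Atp1b1*, *Atp1b2* and *Atp1b3*, the integrin genes *Itgb1*, *Itga3* and *Itga6*, and *Cav1*. They are 10 of 49671 genes in the peptide table and 10 of 56386 in the antibody table. They were chosen by their place in a basigin pathway that the study drew because it moved in opposite directions in these same comparisons. The differences between groups below are therefore descriptions, and no test is read from them.

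RNA from the left ventricle of 30 male wild-type C57BL6J mice was sequenced in 2 studies. In the peptide study, 7 mice were given recombinant human Aβ42 and 7 were given the scrambled peptide ScrAβ42 for 4 weeks. The sample labels give the starting age as 12 weeks and the daily intraperitoneal dose as 1 mg, whereas the study's methods give 10 to 12 weeks and 1 µg. In the antibody study, 8 mice were given 3D6, an antibody that neutralises amyloid beta, and 8 were given a control antibody of the IgG2a isotype, at 0.75 mg per kg each week for 4 months, beginning 1 week after an examination at 12 weeks of age. For these 16 mice the methods name a high-fat diet, and the design text deposited with the data names Aβ42 as well. The comparisons ask which genes respond to more circulating Aβ42, and which respond to its neutralisation.

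Basigin is a membrane glycoprotein of the immunoglobulin superfamily, also known as CD147 or EMMPRIN. It is the chaperone that brings the monocarboxylate transporters MCT1 and MCT4 to the plasma membrane, where they move lactate and pyruvate together with protons. The heart takes up lactate as a fuel, mainly through MCT1. Basigin also associates with integrins of the beta 1 class, with caveolin-1 and with the beta subunits of the sodium pump, and it induces matrix metalloproteinases in neighbouring cells.

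The coding sequences differ between transcripts of 2 of these genes, and the letters where they part are shown because the counts of the antibody study are resolved by transcript. The leading transcript, Bsg-205, joins exon 1 directly to the exon at chr10:79709671-79709827 of GRCm38, plus strand. Bsg-201 inserts an exon of 348 bases, chr10:79708697-79709044, which keeps the reading frame and gives the long form of basigin, known from the retina, with an additional immunoglobulin domain. Capitals mark the first bases after the junction, and the sequences are from GENCODE vM21.
Bsg-205: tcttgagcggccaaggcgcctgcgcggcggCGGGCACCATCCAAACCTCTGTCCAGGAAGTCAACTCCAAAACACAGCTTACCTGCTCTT
Bsg-201: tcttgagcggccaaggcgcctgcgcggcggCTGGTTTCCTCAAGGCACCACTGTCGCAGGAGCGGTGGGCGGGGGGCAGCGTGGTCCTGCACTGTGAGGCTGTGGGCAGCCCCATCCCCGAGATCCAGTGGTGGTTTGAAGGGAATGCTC

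*Itga6* encodes integrin alpha 6, whose cytoplasmic tail exists in the forms A and B. Itga6-201 holds the exon at chr2:71853534-71853663, of which the first 105 bases are coding and end the protein in tail A. Itga6-202 skips this exon and reads on into chr2:71855854-71856771, which gives tail B. Capitals again mark coding bases after the junction, on the plus strand of GRCm38. For Itga6-202 only the first 105 of the 159 coding bases of this exon are printed.
Itga6-201: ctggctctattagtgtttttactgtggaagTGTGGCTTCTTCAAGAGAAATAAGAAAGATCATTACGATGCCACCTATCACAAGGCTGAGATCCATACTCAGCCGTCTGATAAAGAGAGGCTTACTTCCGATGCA
Itga6-202: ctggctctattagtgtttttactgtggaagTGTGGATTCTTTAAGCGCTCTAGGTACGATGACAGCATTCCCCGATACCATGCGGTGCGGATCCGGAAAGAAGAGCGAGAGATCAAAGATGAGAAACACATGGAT

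Hearts of the peptide study held 4478991 to 6015767 counts in total, and those of the antibody study 6397192 to 8310478. Levels are given in CPM, the usual counts relative to library size, with library sizes scaled by the TMM method. The 2 tables were normalized apart and differ in how they were made, so levels are not compared between studies. The 5 cardiomyocyte markers *Myh6*, *Tnnt2*, *Actc1*, *Tnni3* and *Ryr2* together took at least 38968 CPM in every heart. Atrial markers varied widely, with a sum of 12.4 to 8417 CPM in Aβ42 hearts and 3.82 to 3665 CPM in ScrAβ42 hearts, and 5 of 5 had a log2 fold change above 0 with Aβ42. Adipocyte markers (median log2 fold change 2.31), mural markers (0.92) and mesothelial markers (0.89) were also 5 of 5 above 0 with Aβ42, whereas red cell markers (-1.37) and skeletal muscle markers (-0.72) were 5 of 5 below 0. The adipocyte markers were near the floor, with medians per gene of 0.375 to 1.93 CPM in Aβ42 hearts and 0 to 0.874 CPM in ScrAβ42 hearts. Each of them was at 0 in at least 1 heart of either group. Without Aβ42 replicate 5, the heart with the highest mural score, 1.12, the mural markers were 2 of 5 above 0 (median -0.15), the adipocyte markers 4 of 5 (median 0.94) and the mesothelial markers 5 of 5 (median 0.53). None of these markers was called by edgeR. Fits with the atrial score as a covariate are given beside the genes whose sign they turned, and the part of the other lists named here in the group differences was not tested. Among the hearts that stood apart, Aβ42 replicate 5 had the lowest cardiomyocyte marker score of its study, -1.85, and a high fibroblast marker score, 1.84. ScrAβ42 replicate 6 had the highest fibroblast score, 2.00, and macrophage score, 2.38, the next lowest cardiomyocyte score, -1.13, and the lowest *Bsg* and *Slc16a1* of its group. ScrAβ42 replicate 7 had the highest cardiomyocyte score, 1.48, and control antibody replicate 5 had the highest endothelial score of its study, 1.90. The mitochondrial share of counts was lowest in Aβ42 replicate 5 (12.9%) and ScrAβ42 replicate 6 (13.8%) in the peptide study. In the antibody study it was lowest in control antibody replicate 5 (25.9%). The part of this share in the values below was not tested. A score is the mean z-score of log2 CPM over the 5 markers of a list. In whole tissue, fewer cells of a type and less RNA per cell cannot be told apart.

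*Bsg* stood far above its partners in every heart. Per kilobase of exon in the gene model, its median was 657 CPM over the 14 hearts of the peptide study, and *Itgb1* followed at 107. The lowest heart had 329 CPM per kilobase of *Bsg*, above the highest value of *Itgb1*, 133. *Atp1b1* at 80.7, *Slc16a1* at 74.5 and *Cav1* at 72.6 came next, and their ranges overlapped. *Atp1b3* at 17.4 was lower than all of these in every heart. *Atp1b2* at 5.46 and *Itga6* at 5.34 were not separated, since *Atp1b2* was the higher in 8 of 14 hearts. *Itga3* at 3.05 and *Slc16a3* at 0.693 were the lowest, and their ranges did not overlap.

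The order was much the same in the 16 hearts of the antibody study, with medians of 476 CPM per kilobase for *Bsg*, 52.9 for *Itgb1*, 44.0 for *Cav1*, 42.9 for *Atp1b1* and 23.2 for *Slc16a1*. Here *Atp1b1* was above *Slc16a1* in 16 of 16 hearts. The lower end ran from *Atp1b3* at 12.4 through *Itga6* at 5.49, *Atp1b2* at 5.28 and *Itga3* at 1.64 to *Slc16a3* at 0.279. When the length of the leading transcript was used instead of all exons, which was tried after the data were seen, *Bsg* stayed first and *Slc16a3* last in both studies. The places between them then changed, with *Cav1* at 60.0 above *Itgb1* at 56.6 in the antibody study. Of the summed level of the 2 lactate transporters per kilobase, *Slc16a1* held 98.7% ± 0.941 (SD, n = 7) with Aβ42 and 99.1% ± 0.430 (SD, n = 7) with ScrAβ42. Its share was 98.9% ± 0.535 (SD, n = 8) in 3D6 hearts and 98.2% ± 1.13 (SD, n = 8) in control antibody hearts. *Atp1b1* likewise led the beta subunits, with 76.3% ± 3.63 (SD, n = 7) of their sum in Aβ42 hearts and 78.2% ± 3.02 (SD, n = 7) in ScrAβ42 hearts. It took 73.3% ± 3.89 (SD, n = 8) in 3D6 hearts and 67.9% ± 10.7 (SD, n = 8) in control antibody hearts, where the lowest heart had 42.7%.

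*Bsg*, on the plus strand of chr10:79704491-79711969, was counted at 597 to 1656 CPM in Aβ42 hearts, with a median of 1214. In ScrAβ42 hearts it was counted at 838 to 2507 CPM, with a median of 1178. The highest value came from ScrAβ42 replicate 7, and the other 6 ScrAβ42 hearts lay at or below 1365. The lowest of all was Aβ42 replicate 5. Group means were 1172 ± 328 CPM (SD, n = 7) and 1329.7 ± 543 CPM (SD, n = 7), and the log2 fold change was -0.18 (standard error 0.23). It was 0.05 without ScrAβ42 replicate 7, -0.07 without Aβ42 replicate 5 and 0.07 once the atrial score entered the fit. Among mice given antibody, *Bsg* ranged from 665 to 973 CPM with 3D6 (median 867) and from 729 to 949.6 CPM with the control antibody (median 828). The groups lay on top of each other, with a log2 fold change of 0.0026 (standard error 0.097).

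Of the lactate transporters, *Slc16a1* encodes MCT1, the main carrier of the heart, and lies at chr3:104638668-104658462 on the plus strand. It ranged from 189.98 to 362 CPM in Aβ42 hearts (median 326) and from 241 to 426 CPM in ScrAβ42 hearts (median 334). Both extremes were the hearts that were also extreme in *Bsg*. The log2 fold change was -0.16 (standard error 0.15), was -0.07 without Aβ42 replicate 5, and turned to 0.09 once the atrial score entered the fit. With 3D6, *Slc16a1* ranged from 75.2 to 122 CPM (median 105) and with the control antibody from 55.3 to 147 CPM (median 95.2). The 3D6 hearts lay within the range of the controls, at a log2 fold change of 0.03 (standard error 0.17).

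*Slc16a3* encodes MCT4, the carrier typical of glycolytic cells, and lies at chr11:120948480-120960868 on the plus strand. It was close to the limit of the data, with 10 to 57 counts per heart in the peptide study and 5 to 20 in the antibody study. Aβ42 hearts had 2.81 to 7.83 CPM (median 3.95) and ScrAβ42 hearts 2.39 to 5.36 CPM (median 3.50). Aβ42 replicate 5 gave the highest value. The log2 fold change was 0.23 (standard error 0.26), it was 0.0022 without that heart, and it was -0.22 once the atrial score entered the fit. With 3D6 the values were 0.799 to 1.97 CPM (median 1.32), against 1.25 to 2.85 CPM (median 1.63) with the control antibody. The 3 lowest hearts of the study were all 3D6 hearts, and the log2 fold change of -0.50 (standard error 0.24) was the largest of the 10 genes in either study.

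Among the beta subunits of the sodium pump, which help the pump to fold and to reach the membrane, *Atp1b1* (chr1:164437109-164458355, minus strand) is the form typical of heart muscle. It ranged from 244 to 292 CPM in Aβ42 hearts (median 251) and from 206 to 397 CPM in ScrAβ42 hearts (median 237). All 7 Aβ42 hearts lay above the ScrAβ42 median, and the log2 fold change was -0.01 (standard error 0.12). It was 0.12 without ScrAβ42 replicate 7, the heart at 397. In the antibody study, *Atp1b1* ranged from 119 to 184 CPM with 3D6 (median 132) and from 45.9 to 179 CPM with the control antibody (median 141). The lowest value was control antibody replicate 5, and the log2 fold change of 0.15 (standard error 0.20) pointed the other way from the medians. It was 0.03 without that heart.

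*Atp1b2* (chr11:69599736-69605942, minus strand), the beta 2 subunit first known as an adhesion molecule of glia, ranged from 19.7 to 29.4 CPM with Aβ42 (median 22.5) and from 16.9 to 28.4 CPM with ScrAβ42 (median 22.1). Its log2 fold change was 0.11 (standard error 0.12) with Aβ42, and 0.05 without ScrAβ42 replicate 7. It was -0.16 (standard error 0.096) with 3D6, where hearts ranged from 17.5 to 22.5 CPM (median 21.2) against 18.7 to 28.9 CPM (median 21.9) with the control antibody. In the antibody study 1 of 8 3D6 hearts lay below every control heart and none above all of them, and the fold change was -0.10 without control antibody replicate 5 and 0.02 with the endothelial score as a covariate.

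*Atp1b3* (chr9:96332655-96364442, minus strand), the beta 3 subunit, ranged from 39.3 to 71.2 CPM with Aβ42 (median 44.4) and from 35.2 to 55.6 CPM with ScrAβ42 (median 38.2). All 7 Aβ42 hearts lay above the ScrAβ42 median, and only Aβ42 replicate 5 lay above every ScrAβ42 heart. The log2 fold change was 0.22 (standard error 0.13), 0.10 without that heart and -0.01 once the atrial score entered the fit. With 3D6, *Atp1b3* ranged from 25.7 to 31.6 CPM (median 28.7), within the 23.5 to 39.1 CPM (median 29.9) of the control antibody hearts, at a log2 fold change of -0.12 (standard error 0.10), or -0.06 without control antibody replicate 2.

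*Itgb1* (chr8:128685654-128733200, plus strand) encodes integrin beta 1, the shared partner of the alpha chains that bind collagen, laminin and fibronectin. In the peptide study it ranged from 416 to 542 CPM with Aβ42 (median 438) and from 392 to 465 CPM with ScrAβ42 (median 435). The log2 fold change came to 0.07 (standard error 0.075) and to 0.02 without Aβ42 replicate 5. It was -0.0071 when ScrAβ42 replicate 7 was left out as well. In the antibody study it ranged from 196 to 277 CPM with 3D6 (median 212) and from 116 to 285 CPM with the control antibody (median 218). The lowest value again came from control antibody replicate 5, and the log2 fold change was 0.11 (standard error 0.15) with it and 0.02 without it.

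*Itga3* (chr11:95044474-95076801, minus strand) encodes integrin alpha 3, a laminin receptor chain. It ranged from 14.1 to 44.2 CPM with Aβ42 (median 18.2) and from 14.0 to 25.5 CPM with ScrAβ42 (median 16.7). The value of 44.2 CPM was that of Aβ42 replicate 5, and the next heart of the group had 22.5. The log2 fold change was 0.28 (standard error 0.23) with all hearts, -0.02 without that heart and -0.12 once the atrial score entered the fit. With 3D6 the range was 7.59 to 12.4 CPM (median 9.96), inside the 6.58 to 13.3 CPM (median 9.33) of the control antibody group, at a log2 fold change of 0.08 (standard error 0.14), which ran from 0.02 to 0.17 with 1 heart left out.

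*Itga6* (chr2:71745616-71858416, plus strand), the other laminin-binding alpha chain of the list, was lower in both comparisons. With Aβ42 it ranged from 40.5 to 58.3 CPM (median 47.7) and with ScrAβ42 from 40.8 to 65.1 CPM (median 50.6). Of the Aβ42 hearts, 1 of 7 lay above the ScrAβ42 median, and the log2 fold change was -0.13 (standard error 0.11), or -0.06 without ScrAβ42 replicate 4. With 3D6 it ranged from 40.4 to 62.6 CPM (median 47.0) and with the control antibody from 48.5 to 75.5 CPM (median 50.4). Here 5 of 8 3D6 hearts lay below every control heart, while 2 lay above the control median, and the log2 fold change was -0.21 (standard error 0.11), or -0.14 without control antibody replicate 1. Over all alternatives the log2 fold change of *Itga6* ran from -0.19 to -0.04 with Aβ42 and from -0.27 to -0.09 with 3D6.

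*Cav1* (chr6:17306335-17341452, plus strand) encodes caveolin-1, the coat protein of caveolae, abundant in endothelium. It ranged from 211 to 383 CPM with Aβ42 (median 260.1) and from 185 to 282 CPM with ScrAβ42 (median 249). The highest value was that of Aβ42 replicate 5 and the lowest that of ScrAβ42 replicate 7. The log2 fold change of 0.16 (standard error 0.13) was 0.06 without Aβ42 replicate 5 and 0.0015 when both of these hearts were left out, an alternative added after the data were seen. With 3D6, *Cav1* ranged from 117 to 163 CPM (median 145) and with the control antibody from 134 to 223 CPM (median 162). Of the 3D6 hearts, 7 of 8 lay at or below the control median and 3 of 8 below every control heart, and the log2 fold change was -0.23 (standard error 0.10). The 5 endothelial markers moved with it: 5 of 5 had a log2 fold change below 0 with 3D6, their sum was 556 to 704 CPM with 3D6 and 610.3 to 820 CPM with the control antibody, and none was at 0 in any heart. Mural (median log2 fold change -0.16), fibroblast (-0.07), macrophage (-0.18) and red cell markers (-0.09) were likewise 5 of 5 below 0 with 3D6, beside a median of -0.19 for the endothelial markers, and no marker was called by edgeR. Atrial markers were 4 of 4 tested below 0 (median -0.97) and mesothelial markers 2 of 2 (median -0.56). Leaving out 1 heart turned some of these medians, to 2.88 for the atrial markers without control antibody replicate 2 and to 0.06 for the red cell markers without control antibody replicate 5. With the endothelial score as a covariate, added after the data were seen, the log2 fold change of *Cav1* was -0.04.

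With Aβ42, the log2 fold change was above 0 for 6 of the 10 genes and below 0 for 4, beside 50.5% above 0 among all 11985 genes tested. With 3D6 it was above 0 for 5 and below 0 for 5, beside 47.4% above 0 among 12274 genes. Scaled to total counts, which moved the median of all genes to -0.057, 35.5% of genes and 3 of the 10 lay above 0 with 3D6. Their median log2 fold change was 0.09 with Aβ42 and -0.06 with 3D6, against 0.0015 and -0.0098 over all genes tested. Higher with Aβ42 and lower with 3D6 were *Slc16a3*, *Atp1b2*, *Atp1b3* and *Cav1*, 4 of 10 genes, beside 27.6% of all 11361 genes tested in both studies. *Bsg*, *Slc16a1* and *Atp1b1* had the opposite signs, but each had a value near 0 in 1 of the studies. The sign turned in 13 of 25 alternatives for *Bsg* with 3D6, in 9 of 25 for *Slc16a1* with 3D6 and in 9 of 23 for *Atp1b1* with Aβ42. Of all 11361 genes, 53.6% had opposite signs.

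All 10 genes had enough counts to be tested in both studies, 10 per heart on average. The groups overlapped for all 10 in each study, and were free of overlap for 0.0918% of all genes with Aβ42 and for 0% with 3D6. None of the 10 was called by edgeR's quasi-likelihood test at an adjusted p under 0.05, and their adjusted p ranged from 0.807 to 0.993 with Aβ42 and from 0.946 to 0.999 with 3D6. The share of all genes called was 0% in each study. An unadjusted p under 0.05 was reached by 780 genes with Aβ42 and by 447 with 3D6, of which 0 and 1 were among the 10. DESeq2 called 12 genes with Aβ42 and 0 with 3D6, none of them among the 10, and limma-voom called 0 in each study. The 95% interval of the log2 fold change held 0 for 10 of 10 genes with Aβ42 and for 9 of 10 with 3D6, all but *Cav1*. For *Bsg* it ran from -0.68 to 0.31 with Aβ42 and from -0.20 to 0.20 with 3D6.

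**Figure D1:**
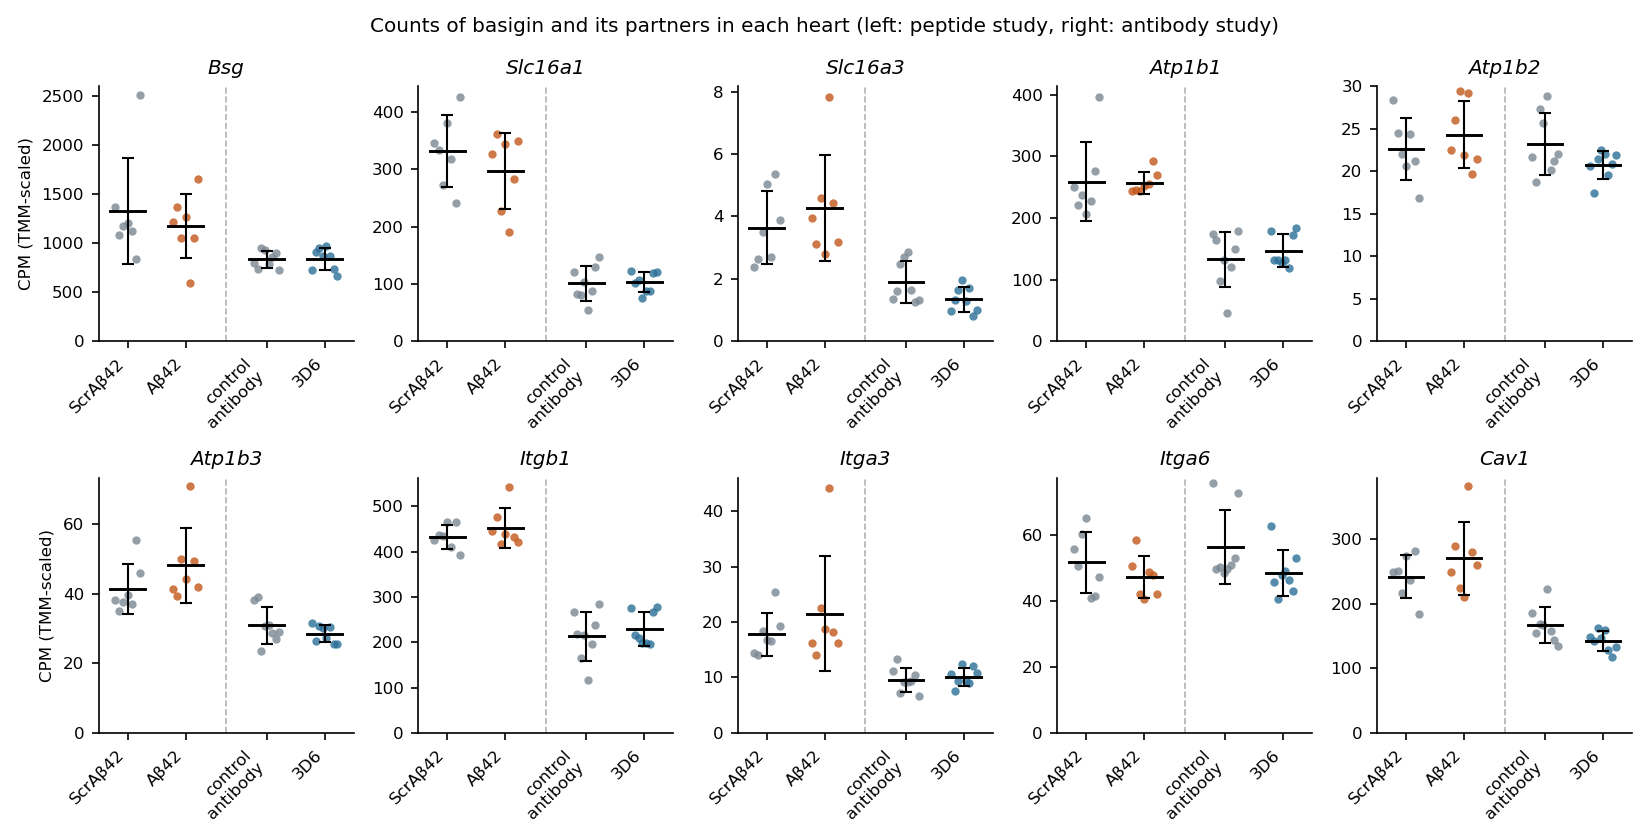
TMM-scaled CPM (vertical axis, from 0) of each of the 10 genes in every heart, by group, with the peptide study left and the antibody study right of the dashed line. Points are hearts and lines with bars are the mean ± SD. The groups of each study overlap in every panel, and single hearts such as ScrAβ42 replicate 7 in *Bsg* (2507 CPM) and Aβ42 replicate 5 in *Itga3* (44.2 CPM) stand apart.

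**Figure D2:**
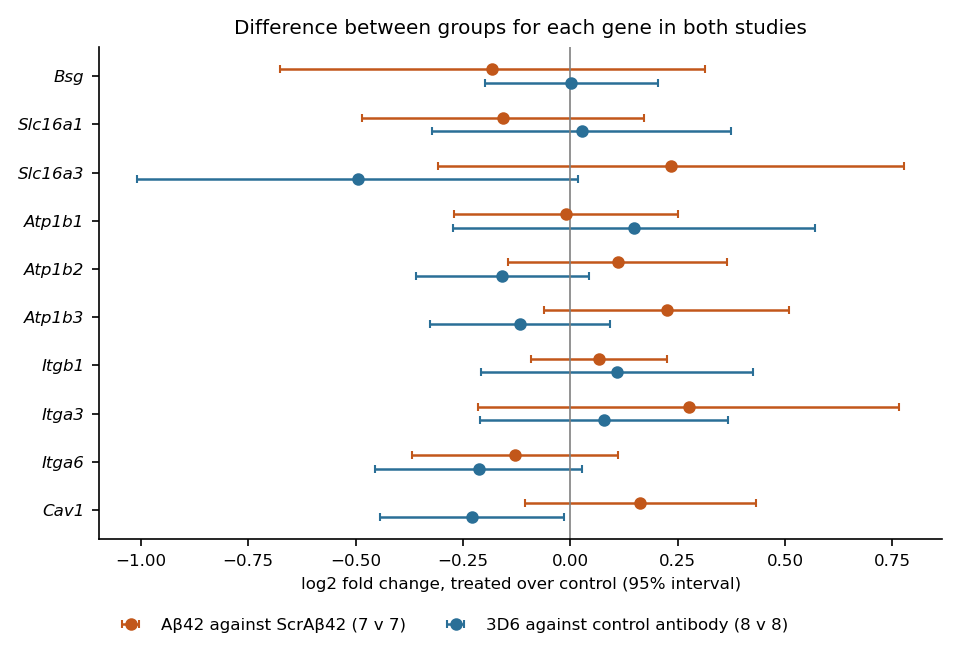
Log2 fold change (horizontal axis) with its 95% interval for each gene, for Aβ42 against ScrAβ42 and for 3D6 against the control antibody. The intervals hold 0 except that of *Cav1* with 3D6, and the widest in each study is that of *Slc16a3*.

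Within groups, hearts with more *Bsg* had more *Slc16a1* in the peptide study. After the group means were removed from log2 CPM, Pearson's r between them was 0.85 over 14 hearts and Spearman's rho was 0.90. A two-sided permutation test within groups with 100000 resamples gave p = 7.00e-05 for r and p = 0.0001 for rho. Adjusted over the 18 relations of *Bsg* with the other genes in both studies, these were 0.00126 and 0.0018. Without the 2 hearts farthest from the median of *Bsg*, ScrAβ42 replicate 7 and Aβ42 replicate 5, r was 0.77. This relation passed the threshold in 16 of 17 alternatives, and failed when those 2 hearts were left out before centring (r = 0.75, adjusted permutation p = 0.102). Of all genes tested in the peptide study, 96.3% had a lower r with *Bsg* than *Slc16a1* had.

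In the antibody study the same pair gave r = -0.28 over 16 hearts (permutation p = 0.276, adjusted p = 0.331) and rho = -0.31 (permutation p = 0.216, adjusted p = 0.298). The r was -0.15 without the 2 hearts farthest from the median of *Bsg*. With total-count scaling the pair passed, at r = -0.61 (permutation p = 0.00819, adjusted p = 0.0246) and rho = -0.63 (permutation p = 0.00879, adjusted p = 0.0226). Over the differences within 8 couples of hearts with consecutive mouse numbers, 1 of each group, it turned to r = 0.76 (exact permutation p = 0.0301, adjusted over 9 relations 0.271) and rho = 0.64 (exact permutation p = 0.0962, adjusted p = 0.433). The difference between the studies in this relation was not tested. *Bsg* ranged from 665 to 973 CPM in the antibody study and from 597 to 2507 CPM in the peptide study, and the part of these ranges was not tested.

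*Itgb1* and *Cav1* ran against *Bsg* in the peptide study, with r = -0.72 for each (permutation p = 0.00783 and 0.00826, adjusted p = 0.0496 for both). Their rho were -0.46 and -0.57, with adjusted permutation p = 0.251 and 0.188. Without the 2 farthest hearts, r fell to -0.37 and -0.33, so these relations rest on those hearts, and each passed in only 3 of 17 alternatives. The other 6 genes did not pass in the peptide study, with r between -0.61 for *Itga3* and 0.51 for *Atp1b1*. Without ScrAβ42 replicate 7, however, *Itga3* (r = -0.90), *Atp1b3* (r = -0.88) and *Slc16a3* (r = -0.80) passed beside *Slc16a1* (r = 0.86). The first 3 of these each had an adjusted permutation p of 0.00994. Each of the 3 passed in only 1 of 17 alternatives, and their weakest r over the alternatives were -0.27, -0.18 and -0.27.

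None of the 9 relations passed in the antibody study with TMM scaling. With total-count scaling, *Slc16a3* (r = 0.69) and *Itgb1* (r = -0.67) passed beside *Slc16a1*, each at an adjusted permutation p of 0.0147. With TMM scaling the largest were those of *Slc16a3* (r = 0.55, permutation p = 0.0328, adjusted p = 0.124) and *Itga6* (r = -0.49, permutation p = 0.0525, adjusted p = 0.124). Over the couples their r were -0.24 and 0.58, and none of the 9 passed. When control antibody replicate 5 was left out, 3 passed, namely *Atp1b1* (r = -0.83, adjusted permutation p = 0.00378), *Itgb1* (r = -0.78, adjusted permutation p = 0.00642) and *Slc16a3* (r = 0.67, adjusted permutation p = 0.0359). That heart had the lowest *Atp1b1*, *Itgb1* and *Slc16a1* of its study and a *Bsg* level of 786 CPM, inside the range of its group.

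**Figure D3:**
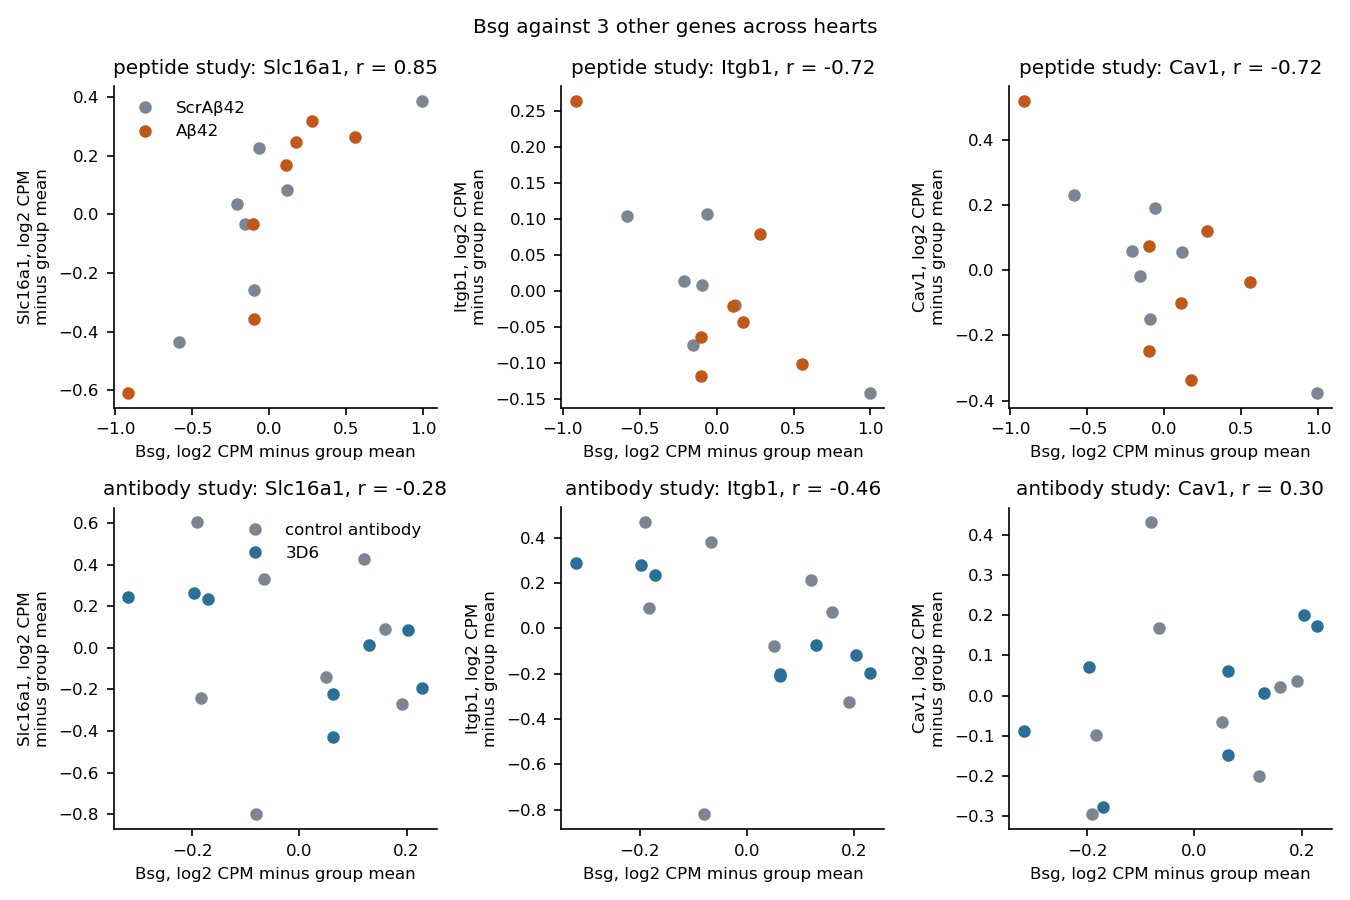
Log2 CPM minus the group mean of *Slc16a1*, *Itgb1* and *Cav1* (vertical axes) against that of *Bsg* (horizontal axes), with the peptide study above and the antibody study below, and 1 point per heart. In the peptide study *Slc16a1* rises with *Bsg* (r = 0.85), and in the antibody study r is -0.28 with TMM scaling, where control antibody replicate 5 is the lowest point.

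The 5 genes most like *Bsg* among 11360 genes, ranked by the smaller of their r in the 2 studies, were *Coq10a*, *Atp5f1*, *Samm50*, *Uqcrfs1* and *Cyc1*. *Coq10a*, which encodes a coenzyme Q binding protein, had r = 0.96 over 14 hearts and 0.95 over 16. *Atp5f1*, a subunit of ATP synthase, had 0.92 and 0.92, and *Samm50*, of the mitochondrial outer membrane, had 0.92 and 0.96. *Uqcrfs1* and *Cyc1*, subunits of complex III, had 0.92 and 0.91 each. These values were selected as the highest and carry no test. By the same measure *Slc16a1* stood at rank 5448, since its r with *Bsg* was negative in the antibody study.

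Across hearts of the peptide study, *Bsg* and *Slc16a1* followed the cardiomyocyte markers. The relations of the 10 genes with 4 marker scores, 80 in all over both studies, were computed after the data were seen. With the cardiomyocyte score, r was 0.89 for *Bsg* (permutation p = 3.00e-04, adjusted p = 0.006) and 0.88 for *Slc16a1* (permutation p = 2.90e-04, adjusted p = 0.006). With the fibroblast score, r was -0.87 for *Bsg* (permutation p = 1.00e-04, adjusted p = 0.004) and -0.89 for *Slc16a1* (permutation p = 9.00e-05, adjusted p = 0.004). Without the 2 hearts farthest from the median of the score, these 4 values were 0.77, 0.73, -0.76 and -0.78. Their rho were 0.73 and 0.76 with the cardiomyocyte score and -0.77 and -0.83 with the fibroblast score, and their adjusted permutation p from 0.0584 to 0.0815 did not pass.

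*Itgb1* followed the mural score instead (r = 0.84, permutation p = 5.30e-04, adjusted p = 0.00848), that is, the markers of smooth muscle and pericytes, with 0.68 without the 2 farthest hearts (rho = 0.79, adjusted permutation p = 0.0588). *Slc16a3* (r = 0.77, permutation p = 0.00264, adjusted p = 0.0352) and *Itga3* (r = 0.78, permutation p = 0.00336, adjusted p = 0.0384) rose with the fibroblast score. They had rho of 0.52 and 0.53, adjusted permutation p = 0.221 and 0.206, and fell to r = 0.44 and 0.30 without the 2 farthest hearts, so they rest on those hearts. None of the 40 relations passed in the antibody study, where the largest were those of *Atp1b2* (r = 0.71, permutation p = 0.00893, adjusted p = 0.0639) and *Cav1* (r = 0.68, permutation p = 0.00918, adjusted p = 0.0639) with the endothelial score. Their rho were 0.64 and 0.65, with adjusted permutation p = 0.142 and 0.106.

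**Figure D4:**
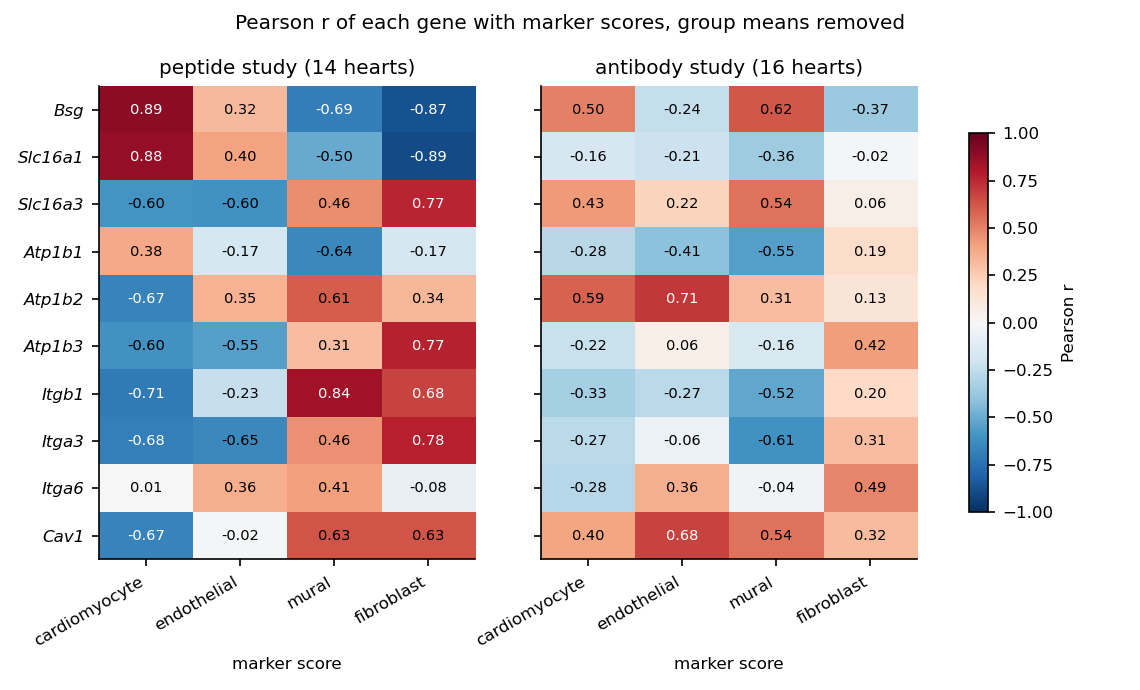
Pearson's r (colour and number) of log2 CPM of each gene (rows) with 4 marker scores (columns) across hearts, group means removed, for each study. *Bsg* and *Slc16a1* have r of 0.89 and 0.88 with the cardiomyocyte score in the peptide study, and 0.50 and -0.16 in the antibody study.

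Nearly all *Bsg* in the antibody study came from Bsg-205, whose junction is printed above, with 96.9% ± 0.607 (SD, n = 8) of the estimated counts of the gene in 3D6 hearts. In control antibody hearts it held 95.9% ± 2.57 (SD, n = 8). Bsg-201, with the extra exon, held 0.727% ± 0.293 (SD, n = 8) in 3D6 hearts and 0.475% ± 0.165 (SD, n = 8) in control antibody hearts. Its range was 0.269 to 1.22% with 3D6 and 0.230 to 0.642% with the control antibody, so the groups overlapped. Bsg-206, a transcript with a retained intron, held 1.79% ± 0.423 and 1.73% ± 0.474 (SD, n = 8 each). Bsg-202, which begins at an alternative first exon, took 0.130 to 1.25% with 3D6 and 0 to 7.54% with the control antibody. The value of 7.54% was that of control antibody replicate 5.

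*Itga6* was divided among 3 transcripts. Itga6-201, with tail A, held 43.4% ± 7.80 (SD, n = 8) in 3D6 hearts and 31.9% ± 13.6 (SD, n = 8) in control antibody hearts. Itga6-202, with tail B, held 10.7% ± 7.01 and 16.4% ± 8.54 (SD, n = 8 each). Itga6-203, a transcript annotated without a coding frame, held 40.6% ± 10.6 and 46.7% ± 14.3 (SD, n = 8 each). It crosses the same junction as Itga6-202, so reads on that junction do not tell these transcripts apart, and the split between them is Salmon's estimate. Of the sum of Itga6-201 and Itga6-202, tail A made up 66.6 to 100% with 3D6 (median 79.96%) and 48.1 to 83.5% with the control antibody (median 65.7%). Within this sum, which leaves out Itga6-203, tail A was the larger part in all hearts but control antibody replicate 7. The groups overlapped from 66.6 to 83.5%. With Itga6-203 in the sum, the range of tail A was 33.8 to 57.9% with 3D6 (median 47.6%) and 18.1 to 59.7% with the control antibody (median 32.2%). Tail A then outweighed the rest only in 3D6 replicate 8 and control antibody replicate 8, so which tail leads depends on how Itga6-203 is counted.

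The other genes were mostly read through 1 transcript. The leading transcript held 98.0% of *Atp1b1*, 86.6% of *Atp1b2*, 99.8% of *Atp1b3*, 92.3% of *Itgb1* and 85.3% of *Cav1* as means with 3D6, and 98.6%, 89.4%, 99.95%, 92.8% and 85.8% with the control antibody. *Slc16a1* has 1 transcript in the table. At 5 to 20 counts per heart, the transcripts of *Slc16a3* could not be resolved, and the leading transcript of *Itga3* ranged from 0 to 92.0% with 3D6 and from 21.9 to 100% with the control antibody.

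**Figure D5:**
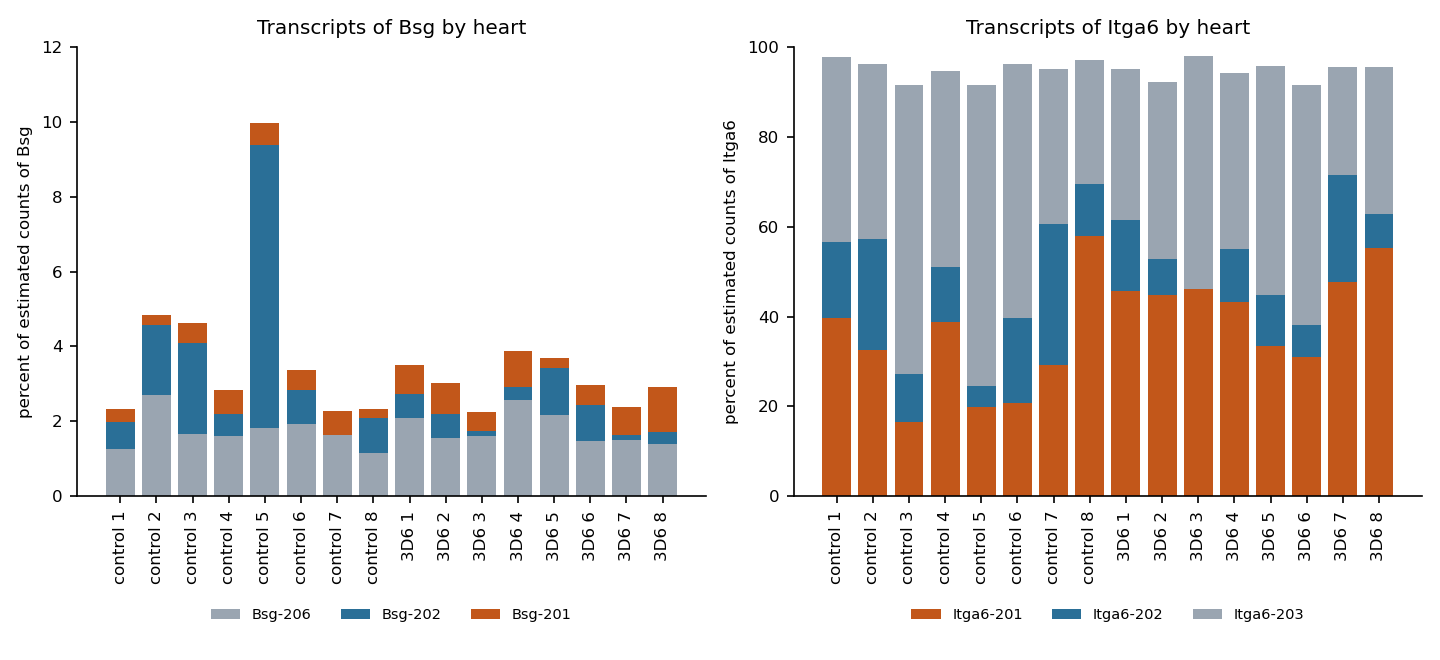
Percent of the estimated counts of *Bsg* (left) and *Itga6* (right) on named transcripts in each of the 16 hearts of the antibody study, stacked. The left axis ends at 12% because Bsg-205, not drawn, holds the rest. Control antibody replicate 5 stands out with 7.54% on Bsg-202, and Itga6-202 is at 0 in 3D6 replicate 3.

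Of the wider pathway, lists were written for further lactate and pyruvate genes, for the CD98 amino acid transporters, which form a complex with basigin, for its other ligands and partners, for other integrins and for caveolae. No gene of these lists was called by edgeR in either study. Of the 12 lactate and pyruvate genes, 8 were tested with Aβ42 (3 higher, 5 lower) and 7 with 3D6 (4 higher, 3 lower), with median log2 fold changes of -0.06 and 0.0047. Without Aβ42 replicate 5, 3 of 7 were higher with Aβ42, with a median of -0.01. *Ldhb*, the heart form of lactate dehydrogenase, had the highest level, 898 ± 249 CPM (SD, n = 7) with Aβ42, 921 ± 126 (SD, n = 7) with ScrAβ42, 1052 ± 132 (SD, n = 8) in 3D6 hearts and 1049 ± 118 (SD, n = 8) in control antibody hearts. *Emb*, the embigin that can stand in for basigin, was at 0.992 to 8.38 CPM with Aβ42 and 0.581 to 3.52 CPM with ScrAβ42 (log2 fold change 1.09, standard error 0.52, adjusted p = 0.763 by edgeR). Without Aβ42 replicate 5 *Emb* had too few counts to be tested. *Slc16a7*, which encodes MCT2, differed most with 3D6, by -0.21 (standard error 0.22), or -0.11 without control antibody replicate 1.

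Of the 5 CD98 genes tested, none was called. They had a log2 fold change above 0 in 5 of 5 with Aβ42 (median 0.22), beside 50.5% of all genes, and in 1 of 5 with 3D6 (median -0.20), beside 47.4%. An unadjusted p under 0.05 by edgeR was reached by 2 with Aβ42, beside 6.51% of all genes, and by 0 with 3D6, beside 3.64%. *Slc3a2*, the CD98 heavy chain, had the highest level, and its log2 fold change was 0.08 (standard error 0.084) with Aβ42, or 0.05 without ScrAβ42 replicate 5, and -0.13 (standard error 0.066) with 3D6. *Slc7a7*, a light chain, differed most with Aβ42, at 1.86 to 30.4 CPM against 0.874 to 10.4 CPM with ScrAβ42 (log2 fold change 1.64, standard error 0.63, adjusted p = 0.702 by edgeR). It was 1.11 without Aβ42 replicate 5 and 2.25 without ScrAβ42 replicate 6, the highest heart of each group. With 3D6 the largest was *Slc7a6*, another light chain, at -0.28 (standard error 0.22), or -0.07 without control antibody replicate 5. *Slc7a7* had -0.22 with 3D6, and 0.75 without control antibody replicate 2. Several marker lists moved in the same directions, as given above for Aβ42 and beside *Cav1* for 3D6. Their part in these values was not tested.

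Among the other ligands and partners, the log2 fold change was above 0 for 4 of 7 genes with Aβ42 and for 2 of 7 with 3D6, with medians of 0.09 and -0.10. Without Aβ42 replicate 5 it was above 0 for 2 of 6 with Aβ42, with a median of -0.08. *Mmp2*, a gelatinase, had a log2 fold change of -0.10 (standard error 0.27) with Aβ42, which ran from -0.33 without Aβ42 replicate 5 to 0.14 without ScrAβ42 replicate 6. *Ppia*, the extracellular ligand cyclophilin A, whose reads can be split with near-identical copies, had -0.17 (standard error 0.12) with 3D6. *Mmp9*, the other gelatinase, differed most in both studies, by 0.29 (standard error 0.46; 0.11 without Aβ42 replicate 6) and 0.59 (standard error 0.56), with adjusted p = 0.945 and 0.946 by edgeR. In the antibody study its highest value, 7.67 CPM, was that of 3D6 replicate 7, while the other 7 3D6 hearts had 0.706 to 1.56 CPM and control hearts 0.135 to 2.56 CPM. Without that heart *Mmp9* had too few counts to be tested, as it had in the peptide study once Aβ42 replicate 5 was left out.

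Of the other integrins, 13 of 16 had a log2 fold change above 0 with Aβ42, beside 50.5% of all genes, and 7 of 15 with 3D6, beside 47.4%. Without Aβ42 replicate 5 the count with Aβ42 was 8 of 16, beside 49.5% of all genes in that fit. *Itga7*, the laminin receptor chain of muscle, had -0.18 (standard error 0.094) with Aβ42 and 0.16 (standard error 0.088) with 3D6. *Itga8* ranged from 2.25 to 227 CPM with Aβ42 and from 3.68 to 9.61 CPM with ScrAβ42 (log2 fold change 2.64, standard error 0.95, adjusted p = 0.693 by edgeR). The value of 227 CPM was that of Aβ42 replicate 5, the next heart had 31.0, and the log2 fold change was 0.46 without replicate 5. *Itga2b*, of platelets, had 0.85 (standard error 0.56) with 3D6, 0.40 without 3D6 replicate 6, its highest heart, and 1.39 without control antibody replicate 5.

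Of 9 caveolar genes beside *Cav1*, 5 were higher with Aβ42, with a median log2 fold change of 0.0088, and 8 of 9 were lower with 3D6, with a median of -0.11, beside 52.6% of all genes lower. An unadjusted p under 0.05 was reached by 4 of them with 3D6, beside 3.64% of all genes, and by 0 with Aβ42, beside 6.51%. *Cavin1*, which builds the coat of caveolae with caveolin-1, had 210.4 ± 12.0 CPM (SD, n = 8) in 3D6 hearts and 233 ± 10.8 CPM (SD, n = 8) in control antibody hearts (log2 fold change -0.15, standard error 0.066, adjusted p = 0.946 by edgeR). *Cavin3* differed most with 3D6, by -0.36 (standard error 0.15), and *Cavin2* with Aβ42, by 0.21 (standard error 0.11). The markers of endothelial, mural, fibroblast, macrophage and red cells, as given beside *Cav1*, were each 5 of 5 below 0 with 3D6 too, and their part in these values was not tested.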

How the data were processed

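Left ventricle was sequenced from TruSeq Stranded Total RNA libraries, which the authors quantified with Salmon against a GENCODE mouse annotation of GRCm38. The peptide table that the authors deposited holds whole-number counts for Ensembl genes, and how transcripts were summed is not given in the sources used here. The antibody table holds estimated counts for transcripts, as the authors deposited them, and these were summed to genes here through GENCODE vM21, in which 99.2% of them are listed, and rounded. In the peptide table, 1 column had no labelled sample and stayed out. The members and lists were chosen with earlier results of these data known.

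Each study was fitted apart in R 4.3.3 by edgeR 4.0.16 (TMM, quasi-likelihood test, two-sided, Benjamini-Hochberg adjustment over all genes tested). Genes needed 10 counts per heart on average. Log2 CPM used a prior count of 2. Hearts are separate mice by their labels, and replicates differed by more than sampling noise in every pair, with a chi-square of 3.36 or more per degree of freedom. On simulated data, 200 genes were moved by 1 on the log2 scale. The fit recovered 84% of them in the peptide design (3 false calls, 11900 genes) and 90.5% in the antibody design (11 false calls, 12192 genes). Alternatives used DESeq2 1.42.0, voom of limma 3.58.1, RLE factors, total-count scaling, no filter, marker scores as covariates, and each heart left out in turn. Endothelial and cardiomyocyte covariates, the joint omission of 2 hearts, the marker relations the couples of consecutive mouse numbers and the omission of hearts for lists and their genes were added after the data were seen. Relations across hearts were permuted within groups. The genes named are the members, per list the gene with the highest level and per study that with the largest absolute log2 fold change, and the 5 genes most like *Bsg*. A further list is not reported here. Positions are 1-based.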

Additional observations from a re-analysis of the deposited data

Results flagged for a closer look

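Of 40 groups of hearts, 1 for each gene, study and treatment, 5 held a heart far from the others by Dixon's test, and chance flags about 1 in 20. In ScrAβ42 replicate 7, *Bsg* was at 2507 CPM, against 838 to 1365 CPM in the other 6 hearts, and *Atp1b1* was at 397 CPM, against 206 to 276 CPM. In Aβ42 replicate 5, *Slc16a3* was at 7.83 CPM, against 2.81 to 4.59 CPM in the other 6 hearts. In the same heart *Atp1b3* was at 71.2 CPM, against 39.3 to 50.1 CPM, and *Itga3* was at 44.2 CPM, against 14.1 to 22.5 CPM.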

How the results depend on the processing

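None of the 10 genes was called under any alternative, 23 in the peptide and 25 in the antibody study. The number of genes called in the peptide study, 0, became 12 with DESeq2, 3 with the endothelial score as a covariate, and 0 to 3 with 1 heart left out (3 without Aβ42 replicate 2, 1 without ScrAβ42 replicate 6), and it stayed 0 in the antibody study. The number of the 10 genes that were higher with 3D6, 5, was 3 with total-count scaling, which moved the median of all genes to -0.057. It was 3 to 5 with 1 heart left out (3 without control antibody replicate 2 or 5). With Aβ42 it was 6, and 5 to 8 with 1 heart left out. The number of relations of *Bsg* that passed in the peptide study, 3, was 1 with RLE factors, 1 to 4 with 1 heart left out, and 0 without both Aβ42 replicate 5 and ScrAβ42 replicate 7. In the antibody study it was 0, 3 with total-count scaling and 0 to 3 with 1 heart left out. The cause of these shifts was not tested. The covariates other than the atrial score and the omission of 2 hearts were chosen after the data were seen. The sign of *Bsg* changed in 3 of 23 alternatives with Aβ42 and in 13 of 25 with 3D6, and that of *Slc16a1* in 1 and 9. The sign of *Cav1* and of *Itga6* changed in 0 alternatives of either study, and that of *Slc16a3* in 1 with Aβ42 (-0.22, atrial score) and 0 with 3D6. Shares of the leading transcripts moved by less than 1 SD when only transcripts with a mean of at least 10 estimated counts were used. No label links mice across groups, but the mouse numbers of the antibody study fall into 8 couples of consecutive numbers, each with 1 heart of either group. Deviations from the group means correlated within couples at r = -0.21 to 0.41, over 0.1 in 6 of 8, and 5 of 16 hearts correlated best with their partner. The main fits did not take the couples as pairs because no label names them. Whether the hearts of a couple shared a source of variation was not tested, and these values do not exclude it. With the couples as a replicate block, added after the data were seen, 0 genes were called, 945 instead of 447 had an unadjusted p under 0.05, and 4 of the 10 genes were higher with 3D6. The log2 fold changes of *Cav1* (-0.22, standard error 0.072), *Itga6* (-0.20, standard error 0.070) and *Slc16a3* (-0.48, standard error 0.21) had an adjusted p of 0.636 each by edgeR. *Cav1*, *Itga6* and *Atp1b2* were lower with 3D6 in 8 of 8 couples, *Slc16a3* in 7 and *Atp1b3* in 6. *Bsg* and *Slc16a1* were lower in 4, and *Atp1b1*, *Itgb1* and *Itga3* in 3. The count was not made over all genes, of which 52.6% were lower with 3D6 in the main fit. It is therefore a description and not read as a result about these genes. In the peptide study no paired analysis was possible because no mouse numbers of the groups are consecutive. Low counts limit what can be read from *Slc16a3* and from the transcripts of *Itga3*.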
